A study of Mus musculus with 16 samples.

Results

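A set of 38 mouse genes, the immediate-early genes and the genes of NF-kB and cytokine feedback, was followed in the blood of tumour-bearing mice and in the cells that infiltrate their tumours. The genes were taken by name and each was read from its brightest probe, named through the RefSeq accession in the array files. Of the 38, 37 had a named probe, 47 probes in all, and 36 passed the filter on low signal, out of 12298 genes tested and 16535 genes named. Dusp5 had no named probe, and Egr3 was well above background in Cy5 on no array and was not tested.

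Female C57Bl/6 mice, which the protocol text calls athymic, received 10000000 cells of Hepa1-6, a mouse hepatoma line, under the skin and were sampled on day 10. The red dye, Cy5, labelled RNA of their blood on 8 arrays and RNA of a density-gradient fraction enriched for infiltrating inflammatory cells, called TIC in the labels, on another 8. The green dye, Cy3, is labelled on all 16 arrays as blood of untreated female C57Bl/6 mice, so a log2 ratio of Cy5 over Cy3 above 0 is a signal above that reference. No dye was swapped, and the labels name no tumour-free sample in Cy5. Blood went directly into RNAlater whereas tumours were mashed first, and the RNA kits differed, so tissue, handling and kit cannot be told apart. The labels do not say whether the shared sample numbers, 889 to 898, mark shared mice. Nor do they say that the arrays of a group came from separate mice, so the p-values measure the spread between these samples, and a ratio tested against 0 treats the reference as 1 control sample without a spread of its own.

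Immediate-early genes are transcribed within minutes of a stimulus by factors that already sit in the cell, among them SRF, CREB and NF-kB, and many of them encode transcription factors of the AP-1, EGR, NR4A and KLF families. A second group feeds back on the signal. DUSP phosphatases remove phosphate from MAP kinases, ZFP36 and its relatives speed the decay of AU-rich mRNAs, the NF-kB inhibitors encoded by Nfkbia and Tnfaip3 restrain NF-kB, and SOCS3 restrains cytokine receptors that signal through JAK kinases. In leukocytes and macrophages these transcripts are among the first to rise after growth factors, cytokines, stress or microbial products.

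The Cy3 channel of the TIC arrays differed from that of the blood arrays although both carry the same label. Over all tested probes the scaled Cy3 signals correlated at 0.985 to 0.998 among the blood arrays, at 0.985 to 0.997 among the TIC arrays and at 0.910 to 0.952 between the groups. Alb, which encodes albumin and marks liver and hepatoma cells, read 10.5 to 19.5 above local background in Cy3 on the blood arrays, well above background on 0 of 8, and 4658 to 12194 on the TIC arrays. With each array's Cy3 scaled to its 75th percentile, 1056 of 12298 genes (8.59%) were called different between the groups by limma, at an adjusted p under 0.05 and a fold of at least 2, and 919 of these were higher on the TIC arrays. Of the 36 genes tested here, 15 were called higher and 0 lower, where 7.47% and 1.11% of all genes were. The largest were Atf3 (5.25 on the log2 scale, SE 0.11), Egr1 (3.32, SE 0.10), Socs3 (3.09, SE 0.11) and Nr4a2 (2.60, SE 0.16). Dusp6 was not called, and its probe read 933, 1056 and 1175 (lowest, median, highest) in Cy3 there and 799, 855 and 1022 on the blood arrays. A ratio divides by this channel, so TIC against blood is given below both as ratios and as Cy5 signal alone, scaled to each array's 75th percentile. The cause of the Cy3 difference was not tested.

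**Figure D1:**
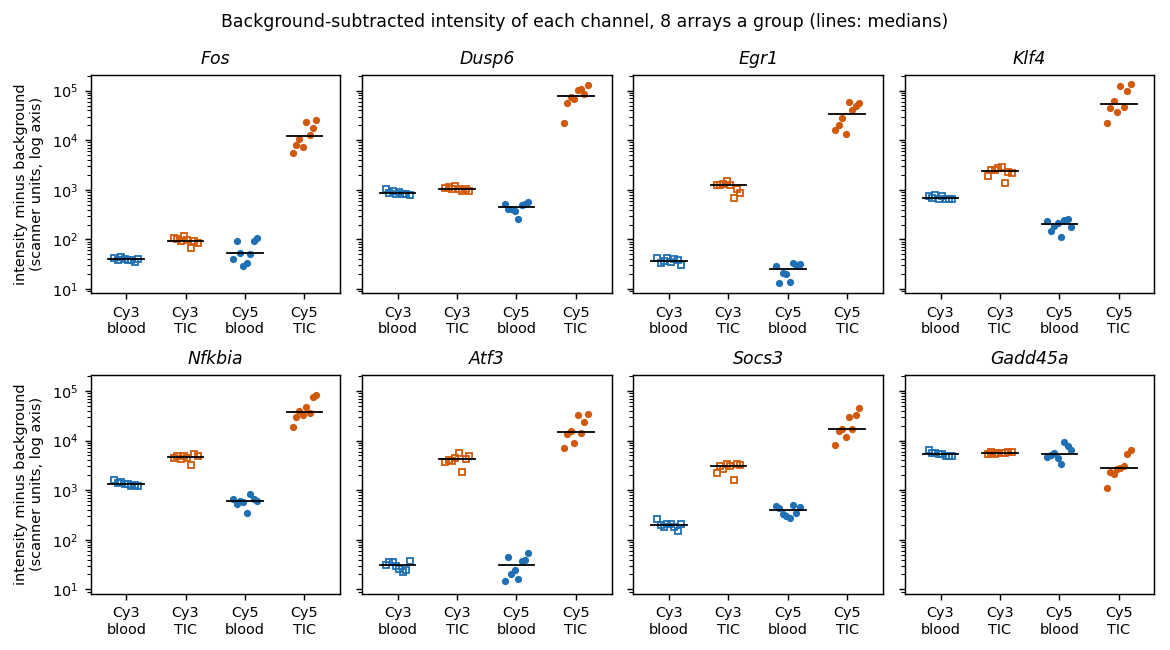
Background-subtracted scanner intensity (log axis) of the reference channel (Cy3, open squares) and the sample channel (Cy5, filled circles) for 8 genes on the 8 blood arrays (blue) and the 8 TIC arrays (orange), with lines at the medians. Cy5 was higher on every TIC array than on every blood array for 7 of the 8 genes, Gadd45a being the exception. Cy3, labelled as the same reference throughout, was also higher on every TIC array for Atf3, Socs3, Egr1, Klf4, Nfkbia and Fos. It overlapped for Dusp6 and Gadd45a. These intensities are unscaled, and the share over all genes was not counted for them. The 75th percentile of Cy3 was at least 7.04 (log2) on the TIC arrays and at most 6.8 on the blood arrays. With each array scaled to its 75th percentile, Fos differed by 0.24 in Cy3 and was not called. Atf3, Socs3, Egr1, Klf4 and Nfkbia were called higher in scaled Cy3.

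The TIC fraction carried markers of several cell types. The summed Cy5 signal of 7 hepatoma markers ranged from 119103 to 671907 on the TIC arrays and from 94.8 to 196 on the blood arrays, where 4 of the 7, Alb among them, were well above background on no array. The same 7 summed to 7890.5 to 18099 in Cy3 on the TIC arrays. The unscaled Cy5 sum was uneven in its parts, with TIC medians of 154217 for Alb and 131 for Gpc3. Gpc3 is named here after its values were seen. Among 9 monocyte and macrophage markers 4 were called higher and 0 lower in ratio in TIC, where 13.6% and 14% of all tested genes were. Mrc1 stood at 3.25 and Adgre1 at 1.47 on the log2 scale. The summed Cy5 signal of the 9 ranged from 86112 to 335046 on the TIC arrays and from 18212 to 39060.0 on the blood arrays. Most of that unscaled sum was Lyz2, a lysozyme gene named here after its values were seen, with a ratio difference of -0.97 and a scaled Cy5 difference of -0.95, neither called. All 7 erythroid and all 8 platelet markers were called lower in ratio in TIC, as were 6 of 7 neutrophil and 7 of 7 B cell markers. In Cy5 alone 7 erythroid, 8 platelet, 6 neutrophil and 6 B cell markers were called lower. Called higher were 7 of the monocyte and macrophage markers, 4 of 7 hepatoma markers and 1 neutrophil marker. Gpc3 was called lower, at -1.48, with a Cy5 signal well above background on 1 of 8 blood arrays. In ratio 4 of the 7 hepatoma markers were called higher and 0 lower. Over all tested genes 35.5% were called lower and 30.8% higher in Cy5. The erythroid sum was 285597 to 649250.0 in blood and 66800.3 to 166252 in TIC. Of the T cell markers, looked at because the mice are called athymic, Cd3d and Cd3e were well above background in Cy5 on all 16 arrays, and of 6 tested 0 were called higher and 1, Cd3e, lower in ratio, against 2 higher and 1 lower in Cy5 alone. Against the reference, blood had 3 of 7 neutrophil and 3 of 8 platelet markers called higher and 3 of 7 B cell markers called lower, with no other marker called. There 0.537% of all tested genes were called higher and 0.252% lower. The part of these cell types in the results on the 36 genes was not tested. In such bulk samples fewer cells of a type and less RNA per cell cannot be told apart.

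Blood of tumour-bearing mice differed little from the reference in these genes. Socs3 and Dusp1 were higher, Klf4 was lower, and the other 33 did not pass the call. That is 3 of 36, where 0.789% of all tested genes were called, 0.537% higher and 0.252% lower. The median log2 ratio of the 36 was 0.019, against -0.023 over all genes.

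Socs3, the inhibitor of JAK and STAT3 signalling, had log2 ratios of 1.24, 1.39 and 1.66 (lowest, median, highest) on the 8 blood arrays. All 8 were above 0, with a mean of 1.41 ± 0.14 (SD, n = 8; limma, adjusted p = 7.65e-13). Dusp1, the nuclear phosphatase that inactivates p38 and JNK, had ratios of 0.86, 1.16 and 1.97, again above 0 on all 8 arrays, with a mean of 1.31 ± 0.42 (adjusted p = 1.84e-08). Klf4, a zinc-finger factor needed for monocyte differentiation, had ratios of -1.23, -1.18 and -0.52, below 0 on all 8 arrays, with a mean of -1.02 ± 0.27 (adjusted p = 8.20e-09). It stood at the 2-fold limit, since its value lay between -1.09 and -0.99 when 1 array was left out and it lost its call without blood 890, 891, 894, 896 or 898. Centring each array on its median put Socs3 at 0.85 and Dusp1 at 0.76, both below the 2-fold limit, and Klf4 at -1.58. Spike-in centring gave 0.72, 0.63 and -1.71 in the same order.

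Several other genes stayed under 2-fold with the same sign on all 8 arrays. Ier5, a regulator of heat-shock factor HSF1, averaged -0.87 ± 0.34 (SD, n = 8) and Dusp2, a phosphatase of ERK in haematopoietic cells, averaged -0.66 ± 0.23, each below 0 throughout. Nfkbia, which encodes the inhibitor IkB-alpha, averaged -0.59 ± 0.16, with ratios of -0.76, -0.61 and -0.32. Their adjusted p-values were 2.84e-07, 3.26e-07 and 1.11e-07, short of the call by size alone, and all 3 passed it with spike-in centring, at -1.44, -1.24 and -1.23. Fos averaged 0.61 ± 0.37 and Junb 0.55 ± 0.32, both above 0 on all 8 arrays. Fos passed the call at 1.49 in the authors' deposited ratios and at 1.22 with plain background subtraction.

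Ier3, an early-response protein linked to cell survival, differed between the slides that held the blood arrays. Its ratios on the blood arrays were -0.013, 0.57 and 1.88 (lowest, median, highest), with a mean of 0.085 over the 4 arrays of slide 1 and 1.48 over the 4 of slide 2. Its Cy5 signal was well above background on 4 of the 8 arrays and its Cy3 signal on none. The pooled mean of 0.78 ± 0.80 did not pass the call, and the fit to slide 2 alone did. With no firm level in Cy3, the size of this ratio is uncertain. For comparison, Socs3 averaged 1.43 on slide 1 and 1.39 on slide 2, and Dusp1 1.23 and 1.40.

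**Figure D2:**
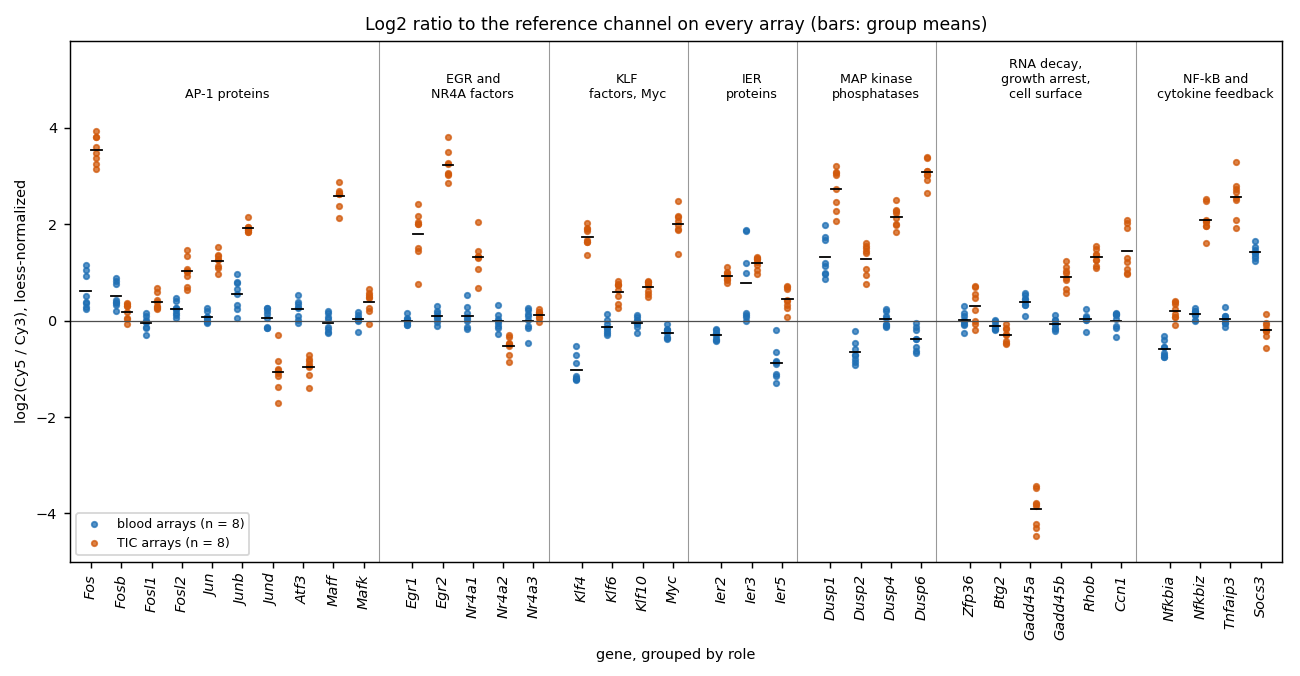
Log2 ratio of Cy5 to Cy3 (loess-normalized) on each of the 8 blood arrays (blue) and 8 TIC arrays (orange) for the 36 tested genes, grouped by role, with bars at the group means. Most blood points lie near 0, with Socs3 and Dusp1 above and Klf4 and Ier5 below, whereas 30 of the 36 TIC means lie above 0, led by Fos at 3.54, and Gadd45a lies at -3.91.

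The TIC fraction differed from blood in most of these genes. In ratios, 19 of the 36 were called higher in TIC than in blood and 4 lower, where 27.5% of all tested genes were called, 13.6% higher and 14% lower. The median difference of the 36 was 1.20 on the log2 scale, against 0.086 over all genes. In Cy5 signal alone 30 were called higher and 2 lower, where 66.3% of all genes were called, 30.8% higher and 35.5% lower, and the median difference was 2.65, against -0.042. Against the reference itself the TIC ratios were called higher for 19 genes and lower for 2, Gadd45a and Jund (Jund at 1.28 after median and 0.56 after spike-in centring), where 10.7% and 12.4% of all genes were. These comparisons share the TIC arrays, and TIC against blood also uses the blood arrays of the comparison above. Fosl1, Jun, Maff, Nr4a2, Nr4a3, Dusp4, Rhob and Ccn1 would not have passed the low-signal filter on the blood arrays alone. Signal on the TIC arrays was thus a condition of testing them, under the filter that all genes passed.

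Groups did not overlap for most of the set. All 8 TIC ratios lay above all 8 blood ratios for 25 genes and below them for 5, where 29.2% and 24.2% of all tested genes did so. In scaled Cy5 signal the TIC arrays lay above all blood arrays for 29 and below for 2, where 38.4% and 40.4% of all genes did so. Of the 36, 19 were called higher by both measures, 9 by Cy5 alone, 1 (Gadd45a) lower by both, and 2 (Atf3 and Socs3) lower in ratio and higher in Cy5. Jund was called lower in ratio only and Nr4a3 lower in Cy5 only, and Fosl1, Fosl2 and Mafk were called by neither. Of the 15 with a higher Cy3 signal on TIC arrays, 5 were called higher in ratio.

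**Figure D3:**
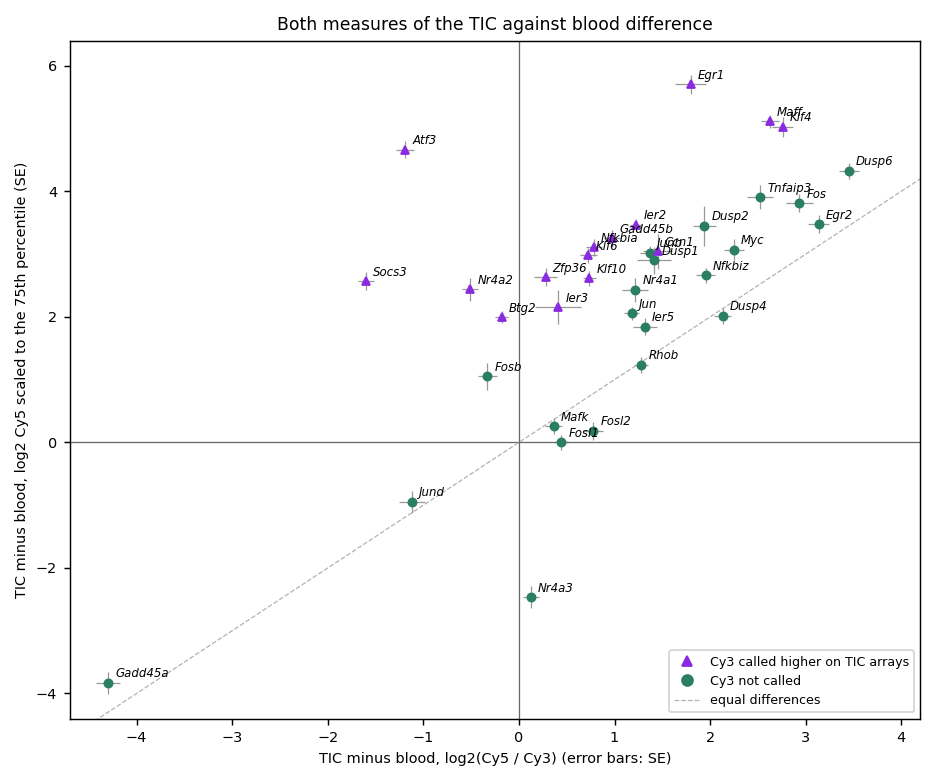
Difference between TIC and blood for the 36 tested genes, as log2 ratio (horizontal axis) and as log2 Cy5 signal scaled to the 75th percentile (vertical axis), with standard errors. Triangles mark the 15 genes whose Cy3 signal was called higher on the TIC arrays. They lie above the dashed line of equal differences, as do most of the other genes, Fos, Junb and Dusp6 among them. Atf3 and Socs3 have a negative ratio difference, which median or spike-in centring turned positive, beside Cy5 differences of 4.66 and 2.57.

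The AP-1 proteins, leucine-zipper factors that bind DNA as FOS and JUN pairs, were led by Fos and Maff. Of 10 tested, 4 were called higher in ratio (Fos, Jun, Junb and Maff), 2 lower (Jund and Atf3) and 4 neither. Fos had ratios of 3.13, 3.54 and 3.92 (lowest, median, highest) on the TIC arrays and 0.24, 0.45 and 1.15 on the blood arrays. Every TIC value exceeded every blood value. The difference was 2.93 (SE 0.14, adjusted p = 1.62e-14) in ratio and 3.81 (SE 0.14) in Cy5, a 7.63-fold and a 14.1-fold change. Maff, a small MAF protein that lacks an activation domain of its own, had Cy5 intensities of 8444, 18249 and 32568 on the TIC arrays, and on the blood arrays it was well above background on none. A blood signal not well above background carries no firm level, so for such genes the Cy5 difference is given under 3 scalings, to the 75th percentile, by quantiles and on detected probes, and no fold. For Maff it was 5.12, 5.67 and 4.2. The Maff ratio differed by 2.62 (SE 0.094, adjusted p = 7.91e-17). Jun, the main partner of FOS, was likewise well above background in Cy5 on no blood array, with Cy5 differences of 2.06, 2.29 and 1.14 and a ratio difference of 1.18 (adjusted p = 2.92e-12).

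Junb, a JUN protein that also restrains proliferation, was well above background on all arrays. Its ratios were 0.048, 0.61 and 0.97 on the blood arrays and 1.83, 1.89 and 2.15 on the TIC arrays, with no overlap, and the difference was 1.37 (SE 0.11, adjusted p = 7.45e-11) in ratio and 3.02 in Cy5. A second Junb probe gave 0.40 in ratio and 3.28 in Cy5, and the mean of both probes, at 0.89, was not called. Fosb, a FOS relative, differed by -0.33 in ratio and by 1.06 (adjusted p = 1.04e-04) in Cy5, and its 2 groups of ratios overlapped. The Fosb ratio difference turned to 2.4 after median and 1.81 after spike-in centring. Fosl1 and Fosl2, the FRA proteins, differed by 0.44 and 0.78 in ratio and were not called in Cy5, and Mafk, a relative of Maff, by 0.36 and 0.26. Fosl1 was well above background in Cy5 on no blood array, and its Cy5 difference was 0, 1.5 and -0.91 under the 3 scalings.

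Jund and Atf3 had lower ratios in TIC. Jund, the JUN protein present in resting cells, had ratios of -0.15, 0.087 and 0.27 in blood and -1.71, -1.06 and -0.30 in TIC, without overlap. It differed by -1.12 (SE 0.14, adjusted p = 1.27e-07) in ratio and by -0.94 in Cy5, where it was not called, and its ratio difference turned to 1.42 after median centring and 0.83 after spike-in centring. Atf3, a stress-induced factor of the ATF and CREB family, had Cy5 intensities of 15, 31.2 and 53 on the blood arrays and 7021, 14916 and 34699.6 on the TIC arrays. In Cy3 it read 22.5, 30.5 and 36.5 on the blood arrays and 2330.5, 4154 and 5482 on the TIC arrays. Every TIC value exceeded every blood value in both channels. Its ratio was called lower in TIC, with a difference of -1.19 (SE 0.095, adjusted p = 1.30e-10), and its Cy5 signal higher, with a difference of 4.66 (SE 0.13, adjusted p = 3.21e-17). Its direction thus depended on the measure and the scaling, and its ratio difference turned to 1.22 after median centring and 0.64 after spike-in centring.

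EGR and NR4A factors, zinc-finger proteins and orphan nuclear receptors induced by growth factors and antigen receptors, rose for 3 of 5 tested in ratio. Egr2, an EGR protein that acts in macrophages and in anergic T cells, had ratios of -0.12, 0.084 and 0.31 in blood and 2.85, 3.16 and 3.81 in TIC. The groups did not overlap, with a difference of 3.14 (SE 0.11, adjusted p = 2.93e-17) in ratio and 3.48 in Cy5. Egr1, the founding member of the family, had ratios of -0.10, -0.012 and 0.15 and 0.76, 1.99 and 2.41, again without overlap. Its Cy5 difference of 5.70 (SE 0.15) was the largest of the 36 with 75th-percentile scaling, and its ratio difference was 1.80 (SE 0.16, adjusted p = 8.03e-10), with a Cy3 signal 3.32 higher on the TIC arrays. Egr1 was well above background in Cy5 on 4 of the 8 blood arrays, and its Cy5 difference was 5.73 by quantiles and 4.79 on detected probes. Nr4a1, an orphan receptor that rises with antigen-receptor signals, differed by 1.22 (adjusted p = 3.38e-08) in ratio and 2.44 in Cy5. Nr4a2, its close relative, was well above background in Cy5 on no blood array and on all 8 TIC arrays, with Cy5 differences of 2.44, 2.90 and 1.52, while its ratio difference was -0.51 and turned to 1.65 after median and 1.06 after spike-in centring. Nr4a3 was well above background in Cy5 on no blood array and on 4 TIC arrays. Its scaled Cy5 difference of -2.47, called lower, compares signals near background and turned to 0.12 with quantile normalization, beside a ratio difference of 0.12. Egr3 read 1.5, 10.5 and 30.5 in Cy5 on the blood arrays and 2.5, 9.5 and 17.5 on the TIC arrays, all near background.

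KLF factors and Myc included 2 called higher in ratio and 4 of 4 called higher in Cy5. Klf4 moved in opposite directions against the reference, at -1.02 ± 0.27 in blood and 1.74 ± 0.22 in TIC (SD, n = 8). Its Cy5 intensities were 114, 204 and 262 on the blood arrays and 22285, 54223 and 132860.0 on the TIC arrays, without overlap. The difference was 2.76 (SE 0.11, adjusted p = 4.95e-16) in ratio and 5.03 in Cy5. Myc, the growth-promoting transcription factor, differed by 2.25 (SE 0.11, adjusted p = 1.12e-14) in ratio and 3.07 in Cy5, and its ratios of -0.38, -0.23 and -0.07 in blood and 1.38, 2.03 and 2.49 in TIC did not overlap. A second Myc probe gave a ratio difference of 1.73 and another, the dimmest, -0.36. Klf6 and Klf10, of which Klf10 is induced by TGF-beta, differed by 0.73 and 0.73 in ratio, short of 2-fold, and by 2.98 and 2.62 in Cy5, where both were called. A second Klf6 probe was called in ratio, at 1.13.

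IER proteins, small early-response proteins, were called higher for 2 of 3 in ratio and for 3 of 3 in Cy5. Ier2, a nuclear member, had ratios of -0.43, -0.29 and -0.18 in blood and 0.78, 0.92 and 1.10 in TIC. The ranges were narrow and apart, and the difference was 1.23 (SE 0.062, adjusted p = 3.57e-14), although the mean with its second probe, 0.75, was not called. Ier5 rose by 1.32 (SE 0.13, adjusted p = 2.79e-09) in ratio and 1.84 in Cy5. Ier3 had TIC ratios of 0.96, 1.24 and 1.33, close together, which overlapped with its wide blood values. It differed by 0.41 in ratio and by 2.15 (SE 0.27, adjusted p = 1.72e-07) in Cy5, and its ratio difference turned to -2.29 in the authors' deposited ratios and to -0.69 with plain background subtraction.

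MAP kinase phosphatases, which shut down ERK, p38 and JNK by removing phosphate from the kinases, were called higher for 4 of 4 tested in both measures. Dusp4 passed the low-signal filter only through its Cy5 on the TIC arrays, so without that condition the count rests on Dusp1, Dusp2 and Dusp6. Dusp6, a cytoplasmic phosphatase that acts mainly on ERK, had the largest increase in loess ratio of the 36, while in the authors' deposited ratios Egr2 (3.83) and Dusp4 (3.65) exceeded it (3.55). Its ratios were -0.67, -0.38 and -0.061 in blood and 2.65, 3.06 and 3.40 in TIC. Every TIC array lay above every blood array, with a difference of 3.45 (SE 0.11, adjusted p = 4.84e-18) in ratio, a 10.9-fold change, and 4.33 in Cy5. Its Cy3 signal differed by -0.17 between the groups and was not called. Dusp4, a nuclear phosphatase that is itself induced by ERK, was well above background in Cy5 on no blood array and on all 8 TIC arrays, with Cy5 differences of 2.02, 2.74 and 1.1 under the 3 scalings and a ratio difference of 2.13 (SE 0.087). Dusp2 had ratios of -0.92, -0.71 and -0.21 in blood and 0.75, 1.41 and 1.61 in TIC and differed by 1.94 (adjusted p = 1.62e-12). One blood array, 889, was dim for the Dusp2 probe in both channels, at 55.5 in Cy5 and 135 in Cy3, against medians of 669.5 and 1606 over the group. Dusp1, already above the reference in blood, rose further, with TIC ratios of 2.06, 2.87 and 3.20 and a difference of 1.42 (SE 0.18, adjusted p = 1.91e-07).

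Genes of RNA decay, growth arrest and the cell surface moved both ways. Of 6 tested, 2 were called higher in ratio (Rhob and Ccn1) and 1 lower (Gadd45a), and in Cy5 5 were called higher and 1 lower. Gadd45a, a p53-regulated stress gene, had ratios of 0.099, 0.41 and 0.56 in blood and -4.46, -3.83 and -3.43 in TIC. Its Cy5 intensities were 3440.5, 5313 and 9243 and 1123, 2739.5 and 6449, while 33 of the 36 genes were brighter in unscaled Cy5 on every TIC array than on every blood array. The share over all genes was not counted for unscaled Cy5, in which 51.1 to 65.8% of probes were well above background on TIC arrays and 24.8 to 36.3% on blood arrays. Gadd45a differed by -4.30 (SE 0.12, adjusted p = 1.63e-18) in ratio and by -3.83 (SE 0.18) in Cy5, and was the only one of the 36 called lower under all 7 scalings tried. Its relative Gadd45b, which is induced by NF-kB and TGF-beta, differed the other way, by 0.98 (SE 0.086) in ratio, just under 2-fold, and by 3.25 (adjusted p = 7.22e-15) in Cy5. A second Gadd45b probe gave -0.71 in ratio and 2.55 in Cy5. Ccn1, a secreted matrix protein also called CYR61, was well above background in Cy5 on no blood array, with Cy5 differences of 3.05, 3.75 and 2.13, ratios of 0.96, 1.26 and 2.08 in TIC and a ratio difference of 1.45 (adjusted p = 1.54e-08). Rhob, an early-response GTPase, differed by 1.28 (adjusted p = 5.38e-13) in ratio, and by 0.91, under 2-fold, without background correction. Its Cy5 signal was well above background on 1 of 8 blood arrays, with Cy5 differences of 1.24, 1.76 and 0.32 under the 3 scalings, the last not called. Zfp36, which encodes tristetraprolin, had overlapping ratios and a difference of 0.28, beside 2.64 (SE 0.14) in Cy5. Btg2, an antiproliferative factor, differed by -0.18 in ratio and 1.997 in Cy5, and its ratio difference turned to 2.68 after median and 2.09 after spike-in centring.

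NF-kB and cytokine feedback genes were led by Tnfaip3 and Nfkbiz. Tnfaip3, which encodes the ubiquitin-editing enzyme A20, had ratios of -0.14, 0.035 and 0.28 in blood and 1.91, 2.60 and 3.28 in TIC. The groups did not overlap, and the difference was 2.52 (SE 0.13, adjusted p = 9.38e-14) in ratio and 3.91 in Cy5. Nfkbiz, an atypical nuclear IkB protein, had ratios of -0.0066, 0.15 and 0.25 and 1.62, 2.05 and 2.52, also apart, and differed by 1.95 (SE 0.099, adjusted p = 3.73e-14). Nfkbia had Cy5 intensities of 346, 611 and 846 on the blood arrays and 18493, 37797 and 83279 on the TIC arrays. Its ratio difference was 0.78 (SE 0.083), below 2-fold, and its Cy5 difference 3.11 (SE 0.14, adjusted p = 1.60e-14), with Cy3 1.30 higher on the TIC arrays. Socs3 reversed between the measures. It read 152, 199.8 and 260.0 in Cy3 on the blood arrays and 1622, 3072 and 3376 on the TIC arrays, and 280.0, 397 and 506 and 7952, 16788 and 45944 in Cy5. Both channels were higher on every TIC array. In ratio it was called lower in TIC, with a difference of -1.60 (SE 0.084, adjusted p = 7.78e-14), in Cy5 higher, with a difference of 2.57 (SE 0.14, adjusted p = 5.84e-13), and the ratio difference turned to 1.29 after median and 0.7 after spike-in centring.

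The bases just upstream of 6 of these genes are shown because they carry, in capitals, the letters of motifs bound by the factors named above. All 6 genes were called higher in TIC in Cy5, and Egr2, Dusp1, Maff and Tnfaip3 also in ratio. Each is the 150 bases before the transcription start in RefSeq's GRCm38.p6 annotation, written 5′ to 3′ on the gene's strand. Egr2 (chr10:67537720-67537869, plus strand) and Zfp36 (chr7:28379229-28379378, minus strand) hold a CArG box, the SRF motif, and Zfp36 also an EGR motif. Dusp1 (chr17:26508473-26508622, minus strand) and Maff (chr15:79347370-79347519, plus strand) hold a cyclic AMP response element, TGACGTCA, and Maff also an EGR motif. Nfkbia (chr12:55492648-55492797, minus strand) and Tnfaip3 (chr10:19015411-19015560, minus strand) hold kappaB motifs, and Tnfaip3 also an AP-1 motif.
Egr2: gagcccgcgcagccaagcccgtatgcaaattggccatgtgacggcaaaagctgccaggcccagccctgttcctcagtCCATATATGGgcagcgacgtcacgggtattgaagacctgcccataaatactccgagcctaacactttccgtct
Zfp36: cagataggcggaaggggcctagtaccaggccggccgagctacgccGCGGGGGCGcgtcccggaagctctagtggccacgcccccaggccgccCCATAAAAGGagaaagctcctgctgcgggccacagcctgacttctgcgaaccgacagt
Dusp1: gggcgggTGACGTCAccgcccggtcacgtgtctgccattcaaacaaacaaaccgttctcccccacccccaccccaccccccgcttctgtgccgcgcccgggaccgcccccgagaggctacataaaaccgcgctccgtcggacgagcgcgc
Maff: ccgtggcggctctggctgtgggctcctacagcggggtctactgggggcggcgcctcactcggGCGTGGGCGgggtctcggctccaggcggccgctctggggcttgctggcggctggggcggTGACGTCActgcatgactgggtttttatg
Nfkbia: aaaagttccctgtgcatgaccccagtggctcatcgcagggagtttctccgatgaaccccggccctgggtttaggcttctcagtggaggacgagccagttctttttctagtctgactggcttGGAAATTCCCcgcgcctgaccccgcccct
Tnfaip3: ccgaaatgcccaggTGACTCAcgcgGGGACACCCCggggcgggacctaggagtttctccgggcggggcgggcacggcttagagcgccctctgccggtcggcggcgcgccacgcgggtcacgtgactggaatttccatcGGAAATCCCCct

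Motif letters were counted in the RefSeq promoter windows, each of 250 bases before and 50 after a start, on both strands. Of the 38 genes 30 had a window, 37 windows in all, out of 32851 windows of 27025 genes. The CArG box occurred in windows of 3 of the 30 genes (Dusp5, Egr2 and Zfp36), 10%, and in those of 1.81% of all genes. The response element TGACGTCA occurred in 3 (Btg2, Dusp1 and Maff), 10%, against 2.03% of all genes. The kappaB motif occurred in 9 (Egr2, Fos, Fosb, Fosl2, Ier3, Maff, Nfkbia, Nr4a1 and Tnfaip3), 30%, against 9.55%. The EGR motif GCGNGGGCG occurred in 12, 40%, against 6.27%, and the AP-1 motif TGANTCA in 1, Tnfaip3, 3.33%, against 8.97%. By window the shares over all 32851 were 1.63%, 1.79%, 8.46%, 5.55% and 7.81% in the order CArG box, response element, kappaB, EGR and AP-1. No match overlapped one of another motif, and a match of letters is a description of the sequence and not a measured site.

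Genes upstream of these, the kinases and factors that carry the signal, are set beside the shares over all tested genes. In ratio 13.6% of all tested genes were called higher and 14% lower. Of 23 tested MAP kinases and SRF or CREB factors, 2 were called higher and 3 lower in ratio, with Map2k3 at -2.35, Mapk14, the p38-alpha kinase, at -1.98 and Map2k2 at -1.38. In Cy5, where 30.8% of all genes were called higher and 35.5% lower, 6 were called higher and 6 lower, and Mapk14 stood at 0.085. The direction of the others held in Cy5, at -1.83 for Map2k3 and -0.30 for Map2k2. Of 19 tested NF-kB subunits, kinases and other inhibitors, 0 were called higher and 3 lower in ratio, with Traf2 at -3.13, Birc2 at -1.77 and Tnfaip2 at -1.30, while in Cy5 10 were called higher and 3 lower, Tnfaip2 now higher at 1.14. The median ratio difference of the lists was 0.09 and -0.062, beside 0.086 over all genes. By limma, 0 genes of either list were called in blood against the reference, where 0.789% of all tested genes were.

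Of 32 other early response genes tested, 13 were called higher and 2 lower in ratio, and 20 higher and 5 lower in Cy5, with a median ratio difference of 0.69. The shares over all genes were 13.6% and 14% in ratio and 30.8% and 35.5% in Cy5, here and for the heat-shock genes. Id2, an inhibitor of helix-loop-helix factors, differed by 2.91 (adjusted p = 1.17e-16), Ccn2, a matrix protein related to Ccn1, by 2.59, and Klf2, a factor of quiescent lymphocytes and endothelium, by -2.70. Of 12 heat-shock genes, 5 were called higher and 0 lower in ratio and 10 higher and 1 lower in Cy5. Hspa5, the endoplasmic reticulum chaperone BiP, differed by 2.79, Hspe1, a mitochondrial chaperonin, by 2.18 and Hsp90aa1, an inducible HSP90, by 1.94.

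How the arrays are scaled moved all genes at once. The median difference between TIC and blood over all genes was 0.086 with loess, 1.68 with median centring, 1.09 with spike-in centring, 0.42 in the authors' deposited ratios, and -0.042, 0.33 and -0.96 in Cy5 scaled to the 75th percentile, by quantiles and on the 8606 probes well above background on all arrays. The median of the 36 genes lay above it each time, at 1.20, 3.61, 3.02, 1.25, 2.65, 2.10 and 1.73. The share of called genes that were higher was 49.2% with loess and 93.9%, 83%, 60.5%, 46.5%, 58.4% and 22.5% with the others. Against the reference, TIC calls were higher in 46.2% of cases with loess, 93.6% with median and 77.4% with spike-in centring, and blood calls in 68%, 2.75% and 1.21%. Under these 7 scalings 17 of the 36 genes were called higher in TIC each time, namely Fos, Jun, Junb, Maff, Egr1, Egr2, Nr4a1, Klf4, Myc, Ier2, Dusp1, Dusp2, Dusp4, Dusp6, Ccn1, Nfkbiz and Tnfaip3. A further 7 were higher each time without always being called. Gadd45a was lower each time, and the remaining 11 were higher under some scalings and lower under others. How many of all tested genes kept a call or a direction under all 7 scalings was not counted.

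**Figure D4:**
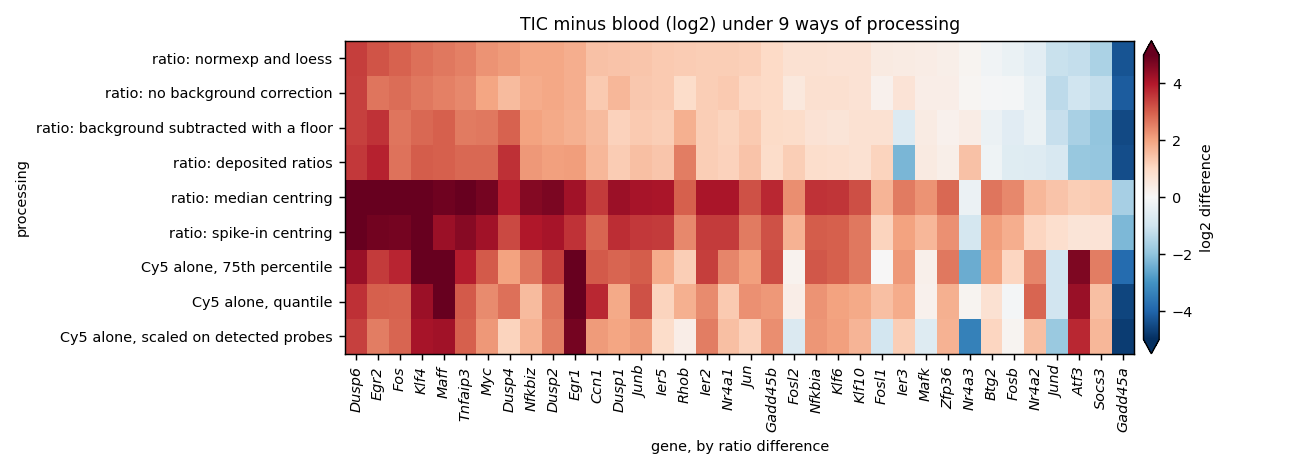
Log2 difference between TIC and blood for the 36 tested genes (columns, ordered by the loess ratio difference) under 9 ways of processing (rows), red for higher and blue for lower in TIC. Dusp6, Egr2, Fos, Klf4 and Maff are red throughout, Gadd45a is blue throughout, and Atf3 and Socs3 change from blue in loess and deposited ratios to red with median or spike-in centring and in Cy5 alone.

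The median SD of the log2 ratio over the 8 arrays was 0.16 for the 36 and 0.14 for all genes in blood, and 0.23 and 0.18 in TIC. Within TIC the largest SDs were those of Egr1 (0.53) and Ccn1 (0.48), and within blood that of Ier3 (0.80). TIC array 893 had the lowest ratio of its group for 14 of the 36 genes and TIC array 889 the highest for 11. The blood arrays lay on slides 1 and 2 and the TIC arrays on slides 3 and 4, so slide and tissue cannot be told apart between groups. Within TIC 20 of the 36 were called against the reference on slide 3 alone and 21 on slide 4 alone, where 22.4% and 24.3% of all tested genes were.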

How the data were processed

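RNA of 8 blood and 8 TIC samples was hybridized in Cy5 against a Cy3 reference on 2-colour Agilent mouse arrays, 16 in all. The deposited files hold spot intensity and local background intensity in both channels and a log10 ratio of Cy5 over Cy3, background-subtracted and dye-normalized by Agilent Feature Extraction 10.5.1.1, per the file headers (9.1.3.1 per the submitters' processing notes). The authors' deposited value table equals those log10 ratios, with a difference of 0.

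Here, median spot intensities were corrected with normexp (offset 50) and loess-normalized within arrays, control spots and outliers left out, with limma 3.58.1 in R 4.3.3. A few local backgrounds, up to 12 spots on an array, lay over 2 times the array's median background and were set to that median. Left in, they raised the median corrected Cy3 signal of TIC 897 from 73.5 to 474 and of TIC 898 from 73.6 to 259. This was decided after seeing the data. Cy5 and Cy3 alone are normexp log2 signals minus each array's 75th percentile. Deposited ratios were turned from log10 to log2.

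Probes were kept where Cy5 was well above background on at least 4 of the 8 arrays of a group or Cy3 on at least 8 of 16. The fit ran over all kept probes with Benjamini-Hochberg adjustment, and a call needs an adjusted p under 0.05 and a fold of at least 2. Of 45018 features 1639 are controls. Of the probes, 23374 had 1 symbol through RefSeq accessions and 17800 had none. Each gene was read from its probe with the highest mean intensity. In Cy5, 24.8 to 36.3% of probes were well above background on the blood arrays and 51.1 to 65.8% on the TIC arrays. Precision is limited by the number of arrays. The fit was tested on simulated data. All 38 genes are named, with up to 3 called genes of each other list by size of difference and up to 2 markers per cell type. Genes and lists were chosen with earlier results of these data known. Alternatives covered background, centring, filter, probe choice, slides, replicate numbers and each array left out.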

Additional observations from a re-analysis of the deposited data

Results flagged for a closer look

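In 15 of the 36 genes the Cy3 channel, labelled as the same reference blood on all 16 arrays and not meant to carry the comparison, was called higher on the TIC arrays than on the blood arrays. The differences, on the log2 scale with each array scaled to its 75th percentile, were 5.25 for Atf3, 3.32 for Egr1, 3.09 for Socs3, 2.60 for Nr4a2 and 2.07 for Maff. They were 1.58 for Zfp36, 1.37 for Ccn1, 1.36 for Ier3, 1.30 for Gadd45b, 1.30 for Nfkbia, 1.20 for Klf6, 1.20 for Ier2, 1.19 for Klf4, 1.19 for Klf10 and 1.13 for Btg2. Of these 15, 10 were called higher by Cy5 alone and not by ratio, and 5 were called higher by both. Of the 19 called higher by ratio, 14 were not called in Cy3. The cause was not tested.

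Klf4 was called lower than the reference in blood and higher in TIC, and the difference of 2.76 was itself called by limma. Junb on TIC array 889 stood apart from its group, with a log2 ratio of 2.15, next to 1.94 for the second highest. Mafk on blood array 889 was the lowest of its group at -0.23, next to -0.01. These are 2 of 72 groups of arrays examined for a value far from the others, and chance alone marks about 1 in 20 groups.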

How the results depend on the processing

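Depth is set by signal over background: 7 of the 36 genes had Cy5 well above background on no blood array. Main counts of called genes of the set were 3 in blood against reference, 21 in TIC against reference, 23 in TIC against blood, 32 in Cy5 alone and 15 in Cy3. In the same order 0.789%, 23.1%, 27.5%, 66.3% and 8.59% of all genes were called. The blood count was 5 with spike-in centring, with the authors' deposited ratios, with subtracted background and a floor, and on slide 2 alone, and 19 by adjusted p alone. Of all genes 8.08%, 7.78%, 3.29%, 1.24% and 51% were called in these settings, in that order. TIC against reference gave 35 with median centring and 36 by adjusted p alone, where 65.8% and 81.7% of all genes were called. TIC against blood gave 35 with median centring, where 68.3% of all genes were called. With the strict filter it gave 15 of 22 tested, where 40.5% of the 5346 genes tested were called. The Cy3 count was 9 with outlying backgrounds kept, where 6.72% of all genes were called. Leaving out 1 array gave 2 to 3, 20 to 21 and 23 to 24 for the first 3 comparisons. Klf4 in blood lost its call without blood 890, 891, 894, 896 or 898. In TIC against reference Fosl2 lost it without TIC 897 or 898 and Jund without TIC 893. Gadd45b gained one in TIC against blood without TIC 894, TIC 896 or blood 889.

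Some genes turned direction. In TIC against reference, median centring gave Jund 1.28, Atf3 1.36, Nr4a2 1.67, Btg2 2 and Socs3 2.13, and spike-in centring gave Jund 0.56, Atf3 0.64, Nr4a2 0.95, Btg2 1.28 and Socs3 1.41. Atf3 and Nr4a2 were called after median centring, but neither with loess nor after spike-in centring. In TIC against blood, median centring gave Fosb 2.40, Jund 1.42, Atf3 1.22, Nr4a2 1.65, Btg2 2.68 and Socs3 1.29, and spike-in centring gave Fosb 1.81, Jund 0.83, Atf3 0.64, Nr4a2 1.06, Btg2 2.09 and Socs3 0.70. Deposited ratios gave Ier3 -2.29. Cy5 alone gave Fosb 1.06, Atf3 4.66, Nr4a2 2.44, Nr4a3 -2.47, Btg2 2 and Socs3 2.57 scaled to the 75th percentile. By quantiles it gave Atf3 4.31, Nr4a2 2.90 and Socs3 1.50, and on detected probes Atf3 3.75, Nr4a2 1.52, Nr4a3 -3.38, Btg2 1.08 and Socs3 1.65. Within Cy5 alone, quantiles turned Fosb to -0.11, Fosl1 to 1.50 and Nr4a3 to 0.12. Other values changed sign without a call in the main or the other setting, 61 in blood against reference, 6 in TIC against reference (the spike-in values of Atf3 and Nr4a2 among them), 10 in TIC against blood, 2 in Cy5 alone and 3 in Cy3. The cause was not tested.

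Over all 12298 genes, blood against reference gave 97 calls, and 582 with median centring, 994 with spike-in centring, 957 in deposited ratios, 405 with subtracted background, 53 without background correction, 152 on slide 2 alone and 6276 by adjusted p alone. Of the blood calls 34.1% were higher in deposited ratios, 45.4% with subtracted background and 41.8% by adjusted p alone, against 68% in the first. TIC against reference gave 2838, and 8094, 6801, 5759 and 4366 in the first 4 of these settings and 10043 by adjusted p alone. TIC against blood gave 3386, and 8398, 7703, 7006 and 5305, 2164 of only 5346 genes tested (40.5%) with the strict filter and 9752 by adjusted p alone. Cy5 alone gave 8153, and 5210 with quantiles.

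The replicate block on the shared sample numbers gave 23 called genes of the set and 3386 of all genes, and changed the call of none of the 36. Arrays of the same number deviated together with correlations from -0.046 to 0.12, 2 of 8 above 0.1. Yet 6 of 8 correlated best with their own number. Whether the numbers mark pairs was left undecided, and the main fit did not use them as pairs.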
